A study of Mus musculus with 2 samples.

Results

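The 10 genes described here, Bnip3l, Fundc1, Pink1, Sqstm1, Map1lc3b, Gabarapl1, Gabarapl2, Ulk1, Tfeb and Lamp1, encode proteins of mitophagy and of general autophagy. They were chosen by name, though with earlier results of these data known, out of the 14366 genes in the deposited tables. All 10 were found in both tables. Of these, 9 had a mean of 5 CPM or more (CPM, molecules per 1000000 molecules of the library), the minimum that 8886 genes in all passed. Tfeb, at about 3 CPM, lay below it and is given by its values only.

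Autophagy encloses cell contents in a double membrane, the autophagosome, and delivers them to the lysosome for breakdown. ULK1 kinase starts the process, ATG8-family proteins (the LC3 and GABARAP proteins) coat the growing membrane, receptors such as SQSTM1 (p62) tie cargo to ATG8 proteins, and TFEB switches on genes of lysosomes and autophagy. Mitophagy is the branch that removes mitochondria, either through receptors that sit in the outer mitochondrial membrane (BNIP3L, also called NIX, and FUNDC1) or through the kinase PINK1, which builds up on damaged mitochondria and recruits the ubiquitin ligase Parkin. Iron chelation is known to induce mitophagy, and blood stem cells are known to rely on autophagy and mitophagy to keep few active mitochondria.

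The 2 libraries came from wildtype C57/B6 mice of 6 to 8 weeks. Marrow of 8 mice was pooled, depleted of lineage-positive cells and sorted for haematopoietic stem cells (HSC), lineage-negative, Sca-1+, c-Kit+, CD150+ and CD48-. All cells were kept in Myelocult M5300 with supplements that were the same in both cultures, among them 100 ng/ml stem cell factor (SCF) and Primocin. The vehicle culture received sterile water for 48 h and the DFO culture 10 µM deferoxamine, an iron chelator, for the same 48 h. Each group is 1 library, so differences could not be set against replicate spread or tested. The 95% intervals are exact Poisson intervals for levels, exact Clopper-Pearson intervals for shares of cells and a normal approximation to the log of the molecules for log2 differences. All cover counting error only. No measurement here reports on autophagic flux or on protein. In sums over all cells, a change in how many cells are of one type and a change of RNA per cell cannot be told apart, so each difference is also given within clusters of like cells.

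The vehicle library held 8708 cells and 260938938 molecules, and the DFO library 9852 cells and 284326017 molecules. Median molecules per cell were 27805.5 and 27114, and the median mitochondrially encoded share was 3.875% in vehicle and 4.395% in DFO. A total of 24 cell barcodes occurred in both libraries, 0.276% of vehicle and 0.244% of DFO cells. Of the HSC markers, 18 of 20 had 5 CPM or more, and levels summed over all 20 were 3488 CPM (vehicle) and 3543 CPM (DFO). Megakaryocyte markers were lower with DFO: all 12 at 5 CPM or more were below 0 in log2 difference. Levels summed over the 16 megakaryocyte markers in the tables were 2157 CPM (vehicle) and 1136 CPM (DFO).

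Promoters of some members are shown first, each as the 250 bases before the RefSeq transcription start (GRCm38.p6), 5′ to 3′ on the strand of the gene. Whether they bear on how members varied was not tested. The motif CACGTG, a palindromic E-box at the centre of the site that TFEB binds, was searched and stands in capitals. Lamp1 (chr8:13158911-13159160, plus strand) is shown because it was the 1 member of the 9 with a promoter entry whose window held the motif. Sqstm1 (chr11:50210821-50211070, minus strand) and Map1lc3b (chr8:121590188-121590437, plus strand) are shown because their levels ran most closely together across clusters, as described further on.
Lamp1: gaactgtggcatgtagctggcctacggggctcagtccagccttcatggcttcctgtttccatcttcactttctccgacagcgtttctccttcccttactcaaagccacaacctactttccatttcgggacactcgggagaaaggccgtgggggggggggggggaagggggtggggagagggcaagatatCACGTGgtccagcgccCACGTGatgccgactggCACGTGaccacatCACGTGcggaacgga
Sqstm1: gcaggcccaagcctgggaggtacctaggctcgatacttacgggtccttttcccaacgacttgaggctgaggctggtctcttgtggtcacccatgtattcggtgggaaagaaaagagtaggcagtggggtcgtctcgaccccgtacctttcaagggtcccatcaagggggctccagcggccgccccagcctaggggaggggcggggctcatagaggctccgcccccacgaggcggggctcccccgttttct
Map1lc3b: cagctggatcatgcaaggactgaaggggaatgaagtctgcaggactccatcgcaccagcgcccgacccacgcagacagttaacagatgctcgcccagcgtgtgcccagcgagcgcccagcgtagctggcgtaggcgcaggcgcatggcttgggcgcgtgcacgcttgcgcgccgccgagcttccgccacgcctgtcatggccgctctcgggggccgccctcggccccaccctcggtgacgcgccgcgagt
The Lamp1 window held 4 matches, whose first bases lie at positions -61, -45, -28 and -15 from the start. Of 32851 promoter windows of this length, 1978 (6.02%) held the motif at least once and 7 (0.0213%) held 4 or more. The windows of Sqstm1 and Map1lc3b held none, although their levels were alike. A match is only a run of letters and does not show that a factor binds there. The RefSeq table has no promoter entry for Bnip3l.

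Between the libraries, the mitophagy receptor gene Bnip3l was the member with the largest difference and was lower with DFO. It stood at 175.9 CPM in vehicle (95% interval 174.3 to 177.5) and 145.2 CPM in DFO (143.8 to 146.7). Its log2 difference, computed for every gene as log2((DFO CPM + 1)/(vehicle CPM + 1)), was -0.27 (-0.29 to -0.26). Bnip3l lies on the minus strand at chr14:66985239-67008877 (GRCm38), and BNIP3L is known for clearing mitochondria from maturing red cells. It was the only member of the 9 past a difference of 0.25 in either direction, where 229 of the 8886 genes (2.58%) were lower by that much and 124 (1.40%) were higher. Its difference sat at percentile 2.12 of all genes. With both libraries weighted to equal cluster shares it was -0.21, which does not pass 0.25.

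Fundc1 (chrX:17556564-17572325, minus strand), whose product is a receptor for mitophagy under low oxygen, lay on the other side. Its level was 31.9 CPM in vehicle (31.2 to 32.6) and 34.4 CPM in DFO (33.7 to 35.1), a log2 difference of 0.11. The intervals did not overlap, but this holds for 4816 of the 8886 genes (54.2%), since the molecule totals are large. Counting intervals that lie apart are thus common between these libraries, and the 0.25 threshold was used for calls.

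Pink1 (chr4:138313409-138326307, minus strand) was lower with DFO, short of the threshold. It was at 16.5 CPM in vehicle (16.0 to 17.0) and 14.3 CPM in DFO (13.9 to 14.7), a log2 difference of -0.19 (-0.26 to -0.13) at percentile 4.43 of all genes. Pink1 and Bnip3l are the members on either side of the threshold. Thinning every cell to 10000 molecules, which leaves out shallower cells, took Pink1 to -0.31, and weighting every cell alike took it to -0.26, both past 0.25.

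Of the cargo receptor and the ATG8 family, 3 members were lower with DFO by small amounts, and the intervals of the other overlapped. Sqstm1 (chr11:50199366-50210827, minus strand) measured 38.1 CPM in vehicle and 35.8 CPM in DFO, a difference of -0.09. Map1lc3b (chr8:121590361-121598760, plus strand), which encodes LC3B, the protein most used to mark autophagosomes, measured 174.9 CPM and 168.4 CPM, a difference of -0.05. Gabarapl1 (chr6:129533160-129542346, plus strand) measured 52.8 CPM and 50.4 CPM, a difference of -0.07. For these genes the counting intervals of the libraries lay apart, while all differences were well within the central 95% of all genes, -0.25 to 0.21. Gabarapl2 (chr8:111940703-111953612, plus strand), whose product GATE-16 also works in Golgi transport, measured 128.5 CPM (127.1 to 129.9) and 130.8 CPM (129.5 to 132.2). Its intervals overlapped.

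Ulk1 and Tfeb, the initiating kinase and the transcription factor, were not separable between the libraries at this depth. Ulk1 (chr5:110784488-110810097, minus strand) was at 8.58 CPM in vehicle (8.23 to 8.94) and 8.29 CPM in DFO (7.96 to 8.63), a difference of -0.04 (-0.13 to 0.04). Tfeb (chr17:47737030-47792419, plus strand) rested on 819 molecules in vehicle and 966 in DFO, or 3.14 CPM (2.93 to 3.36) and 3.40 CPM (3.19 to 3.62). Its difference was 0.09 (-0.05 to 0.22). Lamp1 (chr8:13159161-13175338, plus strand), a main protein of the lysosomal membrane, measured 159.9 CPM (158.3 to 161.4) in vehicle and 154.1 CPM (152.7 to 155.6) in DFO, a difference of -0.05.

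Over the 9 members at 5 CPM or more, 2 were above 0 and 7 below, with a median log2 difference of -0.05. Of all genes, 57.9% were above 0 and 42.1% below, and the median was 0.02. Each of the 10 members kept the sign of its all-cell difference under all 12 alternatives tried for it, with Ulk1 as near to 0 as -0.0014. The genes Mrnip, Zcchc14 and Grtp1, also in the tables, overlap Sqstm1, Map1lc3b and Lamp1 on the opposite strand. No source used here says whether counting used the strand, so these 3 values carry that uncertainty. Gm20388, a protein-coding gene absent from the tables, overlaps Map1lc3b on the same strand, and its part in the Map1lc3b counts was not tested.

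**Figure D1:**
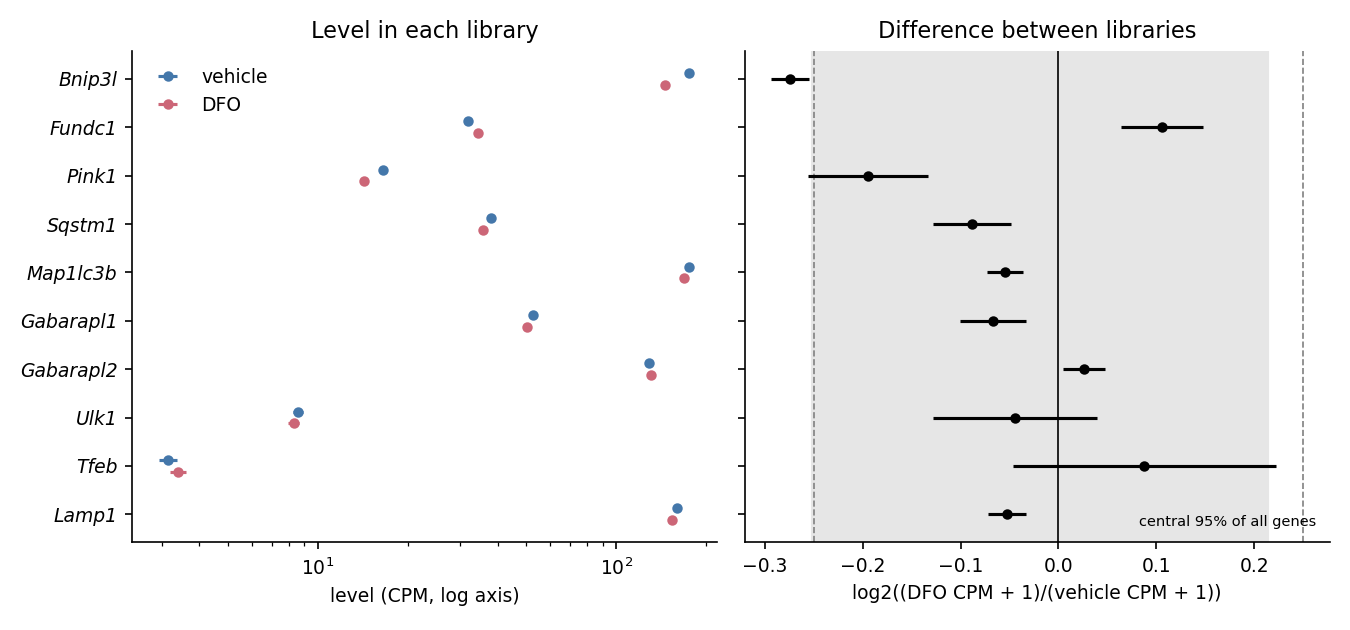
The left panel gives the level of each of the 10 genes in each library (CPM, log axis) with 95% counting intervals, and the right panel the log2 difference of DFO against vehicle beside the central 95% of all genes at 5 CPM or more (grey) and the 0.25 thresholds (dashed). Bnip3l, at -0.27, is the 1 member outside the thresholds.

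Shares of cells with at least 1 molecule, after thinning each cell to 10000 molecules, ran the same way as the levels for Bnip3l and Pink1. Of 8357 thinned vehicle cells 79.3% (78.4 to 80.2) had Bnip3l, and of 9419 thinned DFO cells 73.7% (72.8 to 74.6), against 95.8% and 93.7% before thinning. Pink1 was detected in 16.8% (16.0 to 17.6) and 13.6% (12.9 to 14.3), against 36.7% and 31.9% before thinning. Thinning left out 351 vehicle and 433 DFO cells with fewer molecules. Ulk1 was detected in 8.18% and 8.13% and Tfeb in 2.97% and 3.45%, with overlapping intervals in each case. The variance over the mean of thinned molecules was 1.36 and 1.28 for Bnip3l and between 0.992 and 1.12 for the other 9 genes, where 1 is the value of pure counting. Every cell class here may express these genes, so no class gives the level that free RNA would add.

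Cells were grouped into 10 clusters without use of the 10 genes or the wider pathway list. Genes that vary with the members could still shape the grouping. Nr3c1, Eef1a1 and Fam168b, named further on among the genes most like Bnip3l, Pink1 and Tfeb, were used for it. A cluster led by Serpinb2, Cavin2 and Pf4 was called megakaryocyte-like, and one led by Dlk1, Sult1a1, Procr and Ly6a HSC-like. A small one led by Mpo, Ctsg and Elane was called neutrophil-monocyte-like (82 vehicle and 78 DFO cells). The 8 neutrophil-monocyte markers detected in it, 4 of them among its top 10 genes, had a mean log2 fold of 3.68 against all other cells. Its 3 detected mast cell or basophil markers had nearly the same, 3.62, with 1 in the top 10, Mcpt8. In the HSC-like cluster all 20 HSC markers were detected, 3 of them among its top 10 genes, with a mean log2 fold of 0.94 against all other cells. The few detected lymphoid (2), macrophage or dendritic cell (3) and neutrophil-monocyte (3) markers had higher mean log2 folds there, 1.29, 1.09 and 1.09, with none in the top 10, so the name rests on the top 10 genes. The others have no cell type name and go by their leading genes: a mitosis cluster (Nusap1, Ube2c, Cenpf), a histone cluster (Hist1h1a, Hist1h1b), a Ccl9 and Flt3 cluster (also led by Hist1h2bc), an Ung and Ccne2 cluster (also led by Akr1c13), an Il1rl1 and Gata1 cluster, and a Trnp1 and Cpa3 cluster. The last 2 also hold Klf1 among their leading genes. A cluster of low depth, with a median of 7251 molecules in vehicle and 6619.5 in DFO, is shown but left out of orders and ranges. The lineage-depleted HSC gate was applied before culture, and these states are those found after 48 h in culture.

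Bnip3l was highest in the Trnp1 and Cpa3 cluster and next in the Il1rl1 and Gata1 cluster, neither of which has a cell type name. Erythroid markers had mean log2 folds of 1.00 and 0.68 there, beside 0.78 in megakaryocyte-like cells. The few detected mast cell or basophil markers (1 and 2) had higher folds, 1.93 and 1.21, and the 1 eosinophil marker 2.05 and 0.95. In the Trnp1 and Cpa3 cluster Bnip3l reached 275.7 CPM (vehicle) and 225.8 CPM (DFO), and in the Il1rl1 and Gata1 cluster 228.1 CPM and 177.4 CPM. Megakaryocyte-like cells had 192.7 CPM and 159.2 CPM, HSC-like cells 147.5 CPM and 137.0 CPM, and neutrophil-monocyte-like cells 110.1 CPM and 95.2 CPM. The range from the highest to the lowest cluster was 1.32 on the log2 scale in vehicle and 1.24 in DFO. Clusters were ordered by the mean of both libraries, and neighbours were called apart only where both levels of one cluster lay above both levels of the next. Of the 8 neighbouring pairs for Bnip3l, 1 met this, the step from the Ung and Ccne2 cluster (133.3 CPM and 112.1 CPM) down to the neutrophil-monocyte-like cells. For the other pairs the levels overlap when both libraries are pooled. Within each library, however, the Trnp1 and Cpa3 cluster lay above the Il1rl1 and Gata1 cluster with counting intervals apart, 265.8 to 285.8 against 221.6 to 234.7 CPM in vehicle and 214.4 to 237.7 against 171.4 to 183.5 CPM in DFO.

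By the mean of both libraries Pink1 was also highest in the Trnp1 and Cpa3 cluster, with 28.3 CPM in vehicle and 22.4 CPM in DFO. The Ccl9 and Flt3 cluster, with 25.7 CPM and 23.1 CPM, was second by the mean and highest in DFO. HSC-like cells followed with 18.9 CPM in each library. Megakaryocyte-like cells were lowest with 10.7 CPM and 9.18 CPM, just under the Ung and Ccne2 cluster with 11.2 CPM and 9.29 CPM. The range was 1.32 and 1.25 on the log2 scale. Pink1 in the low-depth cluster, at 36.6 CPM and 28.2 CPM, was above every cluster in the order. Other members also lay outside the order there, with Ulk1 above every cluster in it (17.5 CPM and 21.4 CPM). Map1lc3b (116.5 CPM and 113.1 CPM) and Gabarapl2 (73.4 CPM and 75.0 CPM) lay below every one. That low-depth cluster had median mitochondrially encoded shares of 6.19% and 7.57%, and the part of depth in its levels was not tested.

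Bnip3l and Pink1 were thus the members with a range of 1 or more in both libraries, 2 of 9, where 17.1% of all genes and 11.1% of the 7749 genes not used for clustering did the same. Ulk1 (1.12 and 0.94) lay just outside. The count depends on how finely cells are split: it was 0 at the coarser resolution of 0.25, where Bnip3l ranged over 0.50 and 0.37, and 0 with likely doublets left out, where the ranges stayed close to 1 (Bnip3l 0.99 and 1.04, Pink1 0.97 and 1.24). With 30 neighbours it was again 2, but the genes were Pink1 and Ulk1, and Bnip3l ranged over 0.69 and 0.52. With another seed Bnip3l ranged over 1.16 and 0.9992, and Ulk1 over 1.02 and 1.03.

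Ulk1 was highest in the Ccl9 and Flt3 cluster (12.4 CPM in vehicle, 10.7 CPM in DFO) and in HSC-like cells (10.6 CPM and 10.7 CPM), and lowest in megakaryocyte-like cells (5.18 CPM and 5.11 CPM). Tfeb had its highest mean in HSC-like cells, at 4.93 CPM (3.59 to 6.59) in vehicle and 4.66 CPM (3.46 to 6.14) in DFO, and 1.72 CPM (1.43 to 2.05) and 2.36 CPM (1.96 to 2.82) in megakaryocyte-like cells. Its lowest mean, in neutrophil-monocyte-like cells, rests on 2 and 5 molecules. In DFO alone Tfeb was lowest in the Il1rl1 and Gata1 cluster, 2.035 CPM against 2.116 CPM in neutrophil-monocyte-like cells. Sqstm1 was highest in the Ccl9 and Flt3 cluster with 54.2 CPM and 49.6 CPM, and megakaryocyte-like cells had 29.9 CPM and 29.6 CPM. The same cluster was highest for Map1lc3b with 219.9 CPM and 211.1 CPM, next to HSC-like cells with 218.2 CPM and 206.7 CPM, while megakaryocyte-like cells were lowest with 148.5 CPM and 140.9 CPM. These genes therefore share a low level in megakaryocyte-like cells, though other clusters were as low for some. Sqstm1 was as low in neutrophil-monocyte-like cells of DFO (29.6 CPM). Tfeb had a lower mean in neutrophil-monocyte-like cells and in the Il1rl1 and Gata1 cluster. For Ulk1 in vehicle, the interval of the Ung and Ccne2 cluster (4.42 to 6.82 CPM) overlapped that of megakaryocyte-like cells (4.66 to 5.74 CPM).

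Gabarapl1 ran the other way from Map1lc3b in megakaryocyte-like cells, where it had its highest mean, 62.1 CPM in each library. Its lowest mean was in the histone cluster, 41.7 CPM in vehicle and 44.8 CPM in DFO. Over the clusters of normal depth its relative Gabarapl2 was the flattest member. It lay between 121.0 CPM in megakaryocyte-like cells of vehicle and 144.5 CPM in the Ccl9 and Flt3 cluster of DFO. Its range of 0.22 and 0.21 is smaller than that of all but 4.58% of genes. Lamp1 had its highest mean in HSC-like cells, 176.9 CPM and 174.3 CPM, though the Trnp1 and Cpa3 cluster was higher in vehicle (181.3 CPM), and its range was 0.35 and 0.22. Fundc1 was highest in the Ccl9 and Flt3 cluster, 38.9 CPM and 39.9 CPM, and lowest in megakaryocyte-like cells, 27.4 CPM and 30.8 CPM.

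**Figure D2:**
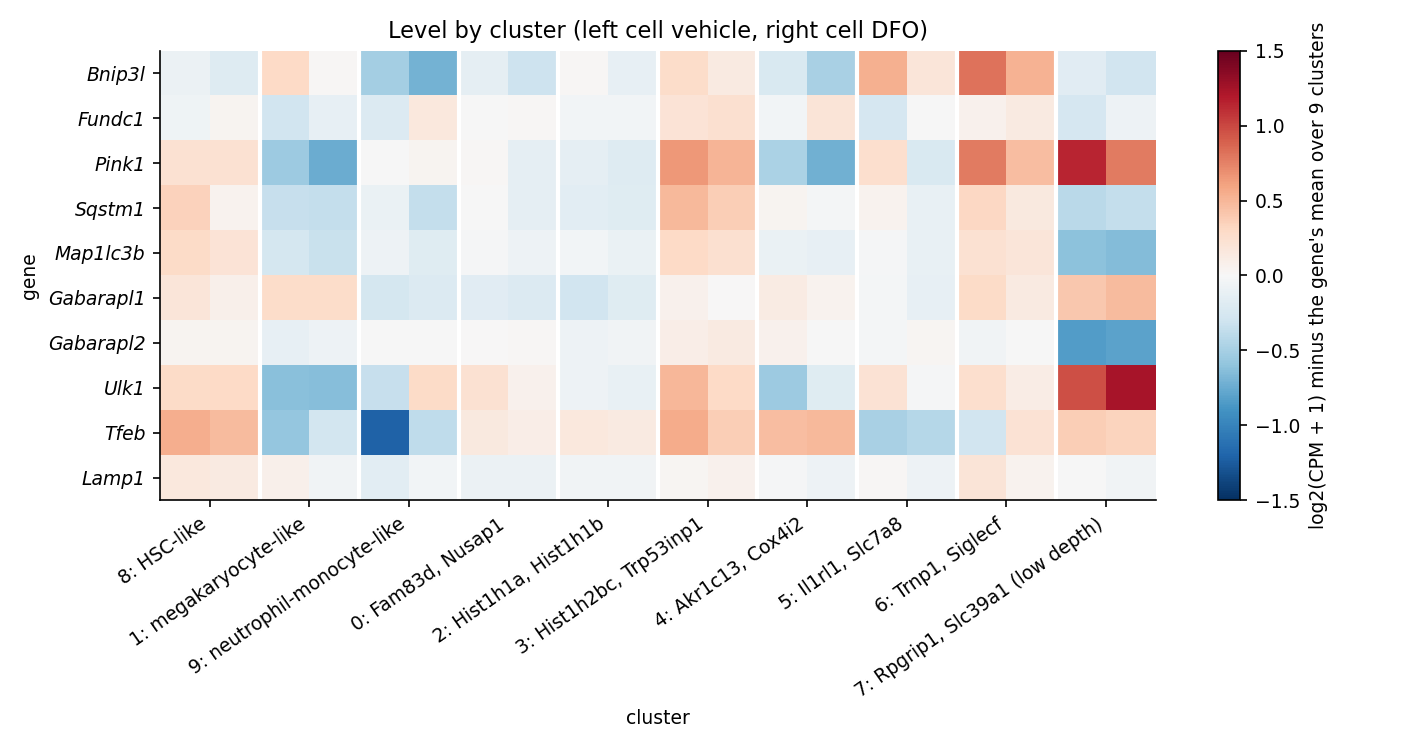
Each square gives log2(CPM + 1) of a gene (rows) in a cluster (columns, vehicle left and DFO right) minus that gene's mean over the 9 clusters of normal depth. Bnip3l is high in the clusters led by Trnp1 and by Il1rl1, while Ulk1, Pink1 and Map1lc3b are low in megakaryocyte-like cells.

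Across the 18 values that 9 clusters in 2 libraries give, Sqstm1 and Map1lc3b were the members most alike, with a Pearson r of log2(CPM + 1) of 0.93. Pink1 and Map1lc3b followed with 0.86 and Pink1 and Ulk1 with 0.82. The lowest values were -0.19 for Gabarapl1 and Ulk1 and -0.15 for Bnip3l and Gabarapl2. These are descriptions over points that share libraries, cells and depth. Among all genes at 20 CPM or more, those most like Bnip3l were Clec2d (0.97), Nr3c1 (0.94), which encodes the glucocorticoid receptor, and Sri (0.94). For Pink1 they were Gstt2 (0.96), Eef1a1 (0.95), the translation elongation factor, and Itm2c (0.95). For Tfeb they were Arhgap5 (0.95), Rps6ka3 (0.90) and Fam168b (0.89).

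Set against HSC-like cells, megakaryocyte-like cells had lower Ulk1, Pink1 and Map1lc3b in both libraries. The log2 ratio was -0.91 in vehicle and -0.94 in DFO for Ulk1, -0.77 and -0.97 for Pink1, and -0.55 in each library for Map1lc3b. These are the 3 of 9 members lower by 0.5 or more in both libraries, which holds for 12.9% of all genes, and 0 of 9 were higher by as much, which holds for 7.08%. Sqstm1 (-0.69 and -0.41) lay just outside. All 3 stayed below 0 in the 8 alternatives tried, but not all stayed past 0.5 in the mean of the libraries. Map1lc3b was -0.33 at resolution 0.25 and -0.47 at resolution 1, Ulk1 was -0.4999 at resolution 0.25 and -0.45 with a pseudocount of 10, and Pink1 ran from -0.53 to -1.41. Fundc1 (-0.23 and -0.18), Gabarapl2 (-0.16 and -0.13) and Lamp1 (-0.08 and -0.18) were below 0 in both libraries, though Lamp1 averaged 0.0059 with likely doublets left out. Gabarapl1 was above 0 (0.09 and 0.20).

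Bnip3l was higher in megakaryocyte-like than in HSC-like cells (0.38 in vehicle and 0.21 in DFO), but this direction turned with the clustering. Its mean over the libraries was 0.30, and it became -0.07 with another seed, -0.11 with 30 neighbours and -0.18 when the members and the pathway list entered the clustering. In all, 2 of 9 members were above 0 in both libraries (40.5% of all genes) and 7 below (46.5%). The median of the 9 members was -0.23 in vehicle and -0.18 in DFO, beside -0.03 and -0.02 for all genes. HSC-like cells had fewer molecules per cell than megakaryocyte-like cells (a median of 25265 against 33196 in vehicle), and the part of depth in these ratios was not tested.

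**Figure D3:**
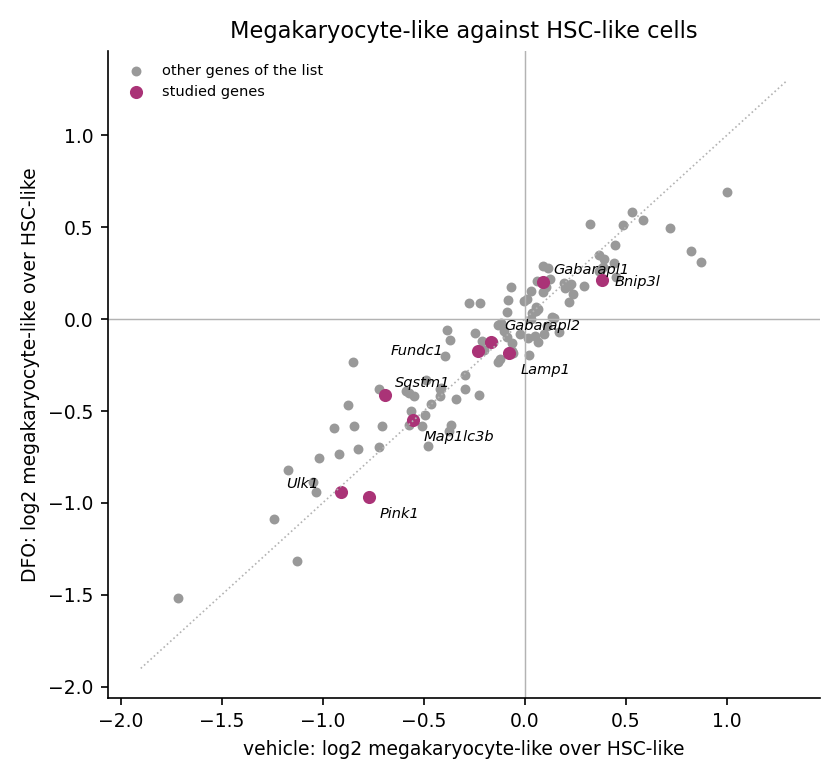
Each point is a gene of the wider autophagy and lysosome list at 5 CPM or more, placed by its log2 ratio of megakaryocyte-like to HSC-like cells in vehicle (x axis) and in DFO (y axis), with 9 of the studied genes in purple and equal values on the dotted line. Ulk1, Pink1 and Map1lc3b lie below -0.5 on both axes, and Bnip3l and Gabarapl1 above 0 on both.

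Within the 9 clusters of normal depth, Bnip3l was lower with DFO in 9 of 9, and counting intervals lay apart in 7. Of all genes, 7.01% were below 0 in every cluster. How many of all genes had intervals apart within clusters was not counted. The counts of such clusters, here and for the members below, thus have no share to be read against. The Bnip3l difference was -0.36 in the Il1rl1 and Gata1 cluster, -0.29 in the Trnp1 and Cpa3 cluster and -0.27 in megakaryocyte-like cells. It was -0.11 (-0.21 to 0.0013) in HSC-like cells, where the intervals of 147.5 CPM and 137.0 CPM overlapped. The thinned share of HSC-like cells with Bnip3l ran the other way, 73.1% in vehicle and 75.6% in DFO. So did that of neutrophil-monocyte-like cells, 65.9% and 66.7%, while the share was lower with DFO in the other clusters of normal depth. The lower Bnip3l of the DFO library was present within clusters, with a median of -0.21, while markers of several lineages also differed between the libraries. Beside the megakaryocyte markers, 5 of 6 erythroid markers (median -0.33) and 4 of 4 neutrophil-monocyte markers (median -0.22) were below 0. With equal cluster shares Bnip3l remained below 0, at -0.21.

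Sqstm1 and Map1lc3b were likewise below 0 in 9 of 9 clusters, with medians of -0.13 and -0.06 and with intervals apart in 2 clusters each. For Sqstm1 the lowest value was in HSC-like cells, 48.9 CPM (44.5 to 53.7) in vehicle and 39.8 CPM (36.1 to 43.7) in DFO, a difference of -0.29. Pink1 was below 0 in 8 of 9, from -0.49 in the Il1rl1 and Gata1 cluster (19.3 CPM and 13.5 CPM, the 1 cluster with intervals apart) to 0.05 in neutrophil-monocyte-like cells. In HSC-like cells Pink1 did not differ in these libraries beyond counting error, at -0.0023 (-0.29 to 0.29).

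Fundc1 was above 0 in 9 of 9 clusters, where 12.4% of all genes were, with a median of 0.11 and intervals apart in 3. Those 3 were the megakaryocyte-like cells (27.4 CPM and 30.8 CPM), the Ung and Ccne2 cluster (32.8 CPM and 38.7 CPM) and the Il1rl1 and Gata1 cluster (28.1 CPM and 33.5 CPM). In the Il1rl1 and Gata1 cluster Fundc1 was thus higher and both Bnip3l and Pink1 lower with DFO. Other Fundc1 differences were close to 0. It was 0.0015 in the histone cluster (32.80 CPM and 32.83 CPM), 0.02 in the mitosis cluster and 0.04 in the Ccl9 and Flt3 cluster. Gabarapl2 was above 0 in 8 of 9 clusters, and Gabarapl1 in 2, Ulk1 in 3, Tfeb in 5 and Lamp1 in 3. For Gabarapl1, Gabarapl2, Ulk1 and Tfeb the intervals overlapped in every cluster. Lamp1 lay apart in megakaryocyte-like cells alone (167.3 CPM and 153.3 CPM).

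**Figure D4:**
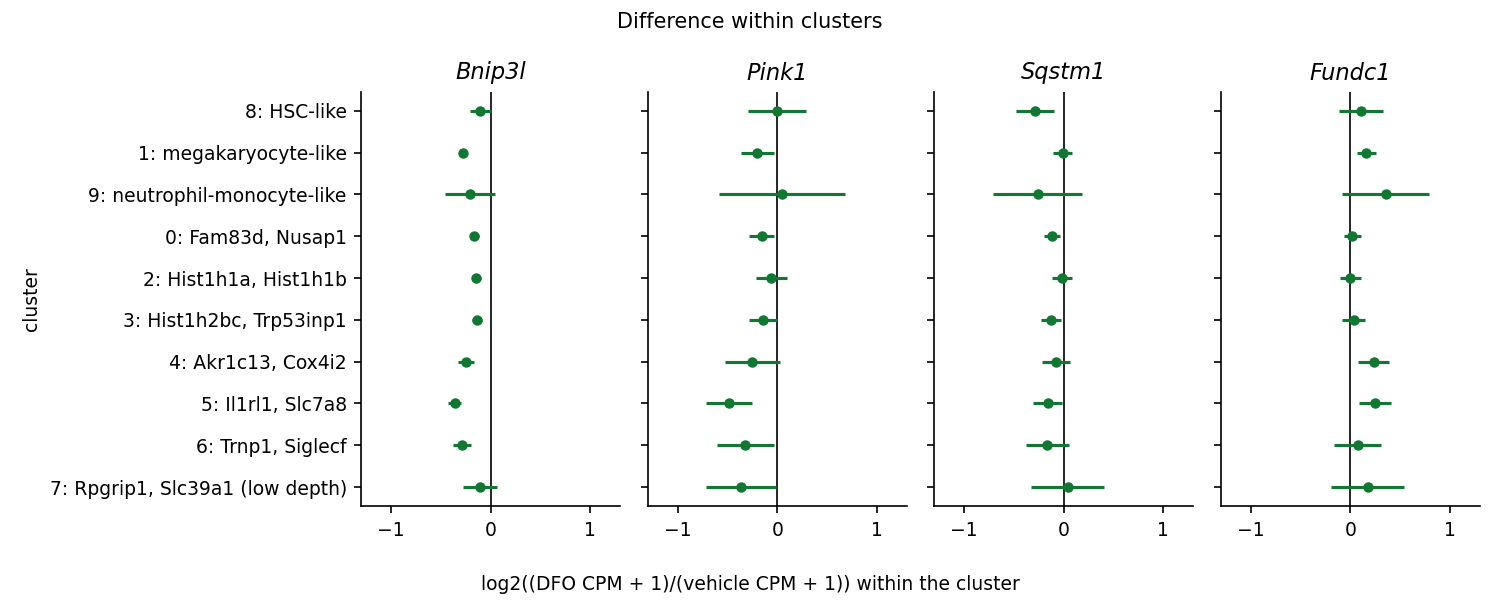
Points give the log2 difference of DFO against vehicle within each cluster, with 95% counting intervals, for Bnip3l, Pink1, Sqstm1 and Fundc1 (1 panel each). Bnip3l lies below 0 in 9 of the 9 clusters of normal depth. Fundc1 lies above 0 in 9 of 9, though by as little as 0.0015 in the histone cluster.

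The wider list of 122 autophagy, mitophagy and lysosome genes, with the 10 members among them, had 113 genes at 5 CPM or more. Of these, 42 were above 0 and 71 below, where 57.9% of all genes were above and 42.1% below. The median was -0.03 beside 0.02 for all genes. None was higher by 0.25, where 1.40% of all genes were. Lower by as much were 2, Bnip3l and Optn, where 2.58% of all genes were lower. Optn, a ubiquitin-binding receptor that works with the PINK1 and Parkin route, was at 5.75 CPM (vehicle) and 4.25 CPM (DFO), a difference of -0.36. Its mean over the libraries lies at the minimum of 5 CPM, and leaving out the low-depth cluster or using female cells alone took it off the count.

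Among genes that make the autophagosome, differences were small in both directions. Of all genes, 57.9% were above 0 and 42.1% below. The ULK complex had 1 of 5 above 0, from Ulk2 (-0.12) to Atg101 (0.08). The class III PI3 kinase complex had 3 of 7 above 0, from Uvrag (-0.06) to Ambra1 (0.07), and the membrane supply genes 4 of 9, from Wipi1 (-0.14) to Vmp1 (0.13). The conjugation enzymes had 5 of 10 above 0, from Atg4a (-0.09) to Atg4b (0.08). In the ATG8 family 4 of 5 were below 0, with Map1lc3a at -0.13, and Gabarap at 257.1 CPM (vehicle) and 242.4 CPM (DFO), a difference of -0.08.

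Of the ubiquitin-binding and other cargo receptors, 6 of 7 were below 0 with a median of -0.09, where 42.1% of all genes were below 0. The exception was Ncoa4, the receptor that brings ferritin to the lysosome and so frees its iron, at 58.6 CPM (vehicle) and 61.7 CPM (DFO), a difference of 0.07. Of the receptors in mitochondrial membranes, 4 of 8 were above 0, near the 57.9% of all genes. Bnip3, the close relative of Bnip3l and a known target of hypoxia-inducible factor, was at 78.3 CPM and 69.9 CPM (-0.16), and Phb2 was at 0.07. In the PINK1 and Parkin group 4 of 7 were above 0, from Pink1 through Mfn1 (-0.05) to Pgam5 (0.08). Parkin itself, listed as Park2, was at 0.360 CPM and 0.366 CPM on 94 and 104 molecules.

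Downstream, fusion genes had 4 of 11 above 0, from Vps16 (-0.17) to Plekhm1 (0.09), and lysosome genes 7 of 25, from Ctsa (-0.18), a lysosomal carboxypeptidase, to Npc1 (0.13), the cholesterol exporter of lysosomes. The lysosome median was -0.03, and 57.9% of all genes were above 0. Of the transcription factors, 2 of 4 were above 0, from Foxo3 (21.9 CPM in vehicle, 19.4 CPM in DFO, -0.17) to Foxo1 (0.03, below 0 in 2 of 12 alternatives). Of the mTORC1 and AMPK genes, 6 of 15 were above 0, from Ddit4 (-0.17), an inhibitor of mTORC1, to Mlst8 (0.13), a subunit of it. No gene of these 4 groups passed 0.25.

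**Figure D5:**
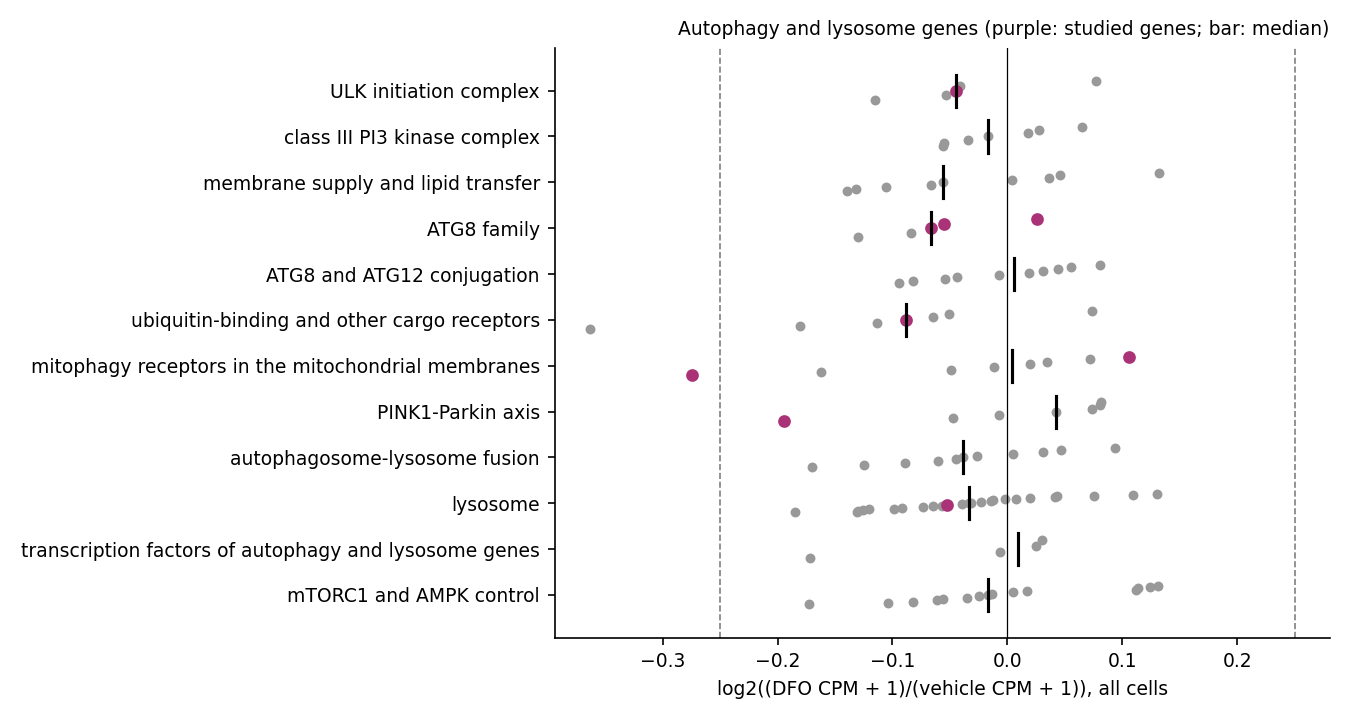
Each point is a gene of the wider list at 5 CPM or more, placed by its log2 difference of DFO against vehicle and grouped by role, with the median of each group as a bar, the studied genes in purple and 0.25 dashed. Bnip3l and Optn are the 2 points past -0.25 and no point is past 0.25.

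In megakaryocyte-like against HSC-like cells, 3 of the 104 genes of the wider list that are not members were higher by 0.5 in both libraries and 16 were lower, beside 7.08% and 12.9% of all genes. The 3 were Tollip (1.00 in vehicle and 0.69 in DFO), Atg3 (0.58 and 0.54) and Bnip3 (0.53 and 0.59). Tollip and Atg3 were named after their values were seen. Lysosome genes were mostly lower in megakaryocyte-like than in HSC-like cells, 18 of 25 below 0 in both libraries (46.5% for all genes) and 7 by 0.5 or more. Their medians were -0.42 and -0.38 beside -0.03 and -0.02 for all genes. The cathepsin genes Ctsh and Ctss, which are not on the list, were among the leading genes of the HSC-like cluster. The lysosome counts are given for this clustering only, and the part of the reference cluster in them was not tested. Bnip3 was thus higher in megakaryocyte-like cells under the clustering used, and Ulk1, Pink1 and Map1lc3b were lower.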

How the data were processed

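Single-cell RNA was profiled with 10x Genomics 3′ v3 libraries, 20000 cells loaded per culture, per the labels' protocols. The submitters' processing notes name FastQC 0.11.9, Trim Galore 0.6.5, Cell Ranger 3.0.2 and build mm10. No source used here gives the cell filter or the strand setting. The authors deposited natural log values per gene and cell: the natural log of 1 + 27408 × molecules over the cell's total, as the values show. Whole molecules were recovered for 100% of nonzero values within 0.05. The total implies that 0.00734% of vehicle and 0.00684% of DFO molecules lie outside the tables.

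Molecules were summed per library or cluster and scaled to CPM, and differences used a pseudocount of 1. As counts are 3′ tags, levels are compared for 1 gene across samples, not between genes. Clustering was done in Python 3.11.15 with scanpy 1.11.5 and leidenalg 0.10.2 (2000 variable genes, 30 components, 15 neighbours, resolution 0.5, seed 0), without the members, the pathway list, cell cycle, mitochondrially encoded and ribosomal protein genes. A cluster was named from 3 or more detected markers of a type with at least 1 in its top 10 genes, and only where no other type with a marker in that top 10 had a higher mean fold, which is stricter than the rule first set. Scrublet called 14 and 5 cells (0.161% and 0.0508%) and so has not worked. As an alternative 820 and 925 likely doublets were left out, by top score or molecules of both sexes. Genes beyond the 10 were named by a rule: the highest and lowest of each group, Bnip3, Ncoa4, Gabarap and Parkin, and the 3 genes most like the 3 members of widest mean range. Members, lists and thresholds were chosen with earlier results of these data known. Code was tested on simulated data. Promoters are from RefSeq, gene coordinates from GENCODE M21. A further supplement of the culture medium is not reported here.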

Additional observations from a re-analysis of the deposited data

How the results depend on the processing

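No paired analysis was possible because each group has 1 library. For the same reason no replicate could be left out. All-cell differences were recomputed with other pseudocounts, scalings, cell weights and cell sets, and cluster results with other clusterings. Leaving out the low-depth cluster was chosen after seeing the data. The median of the members stayed below 0 in all 14 alternatives, between -0.08 and -0.04. The members lower by 0.25 numbered 2 with cells weighted alike and 2 with thinned cells, where Pink1 joined Bnip3l, and 0 with equal cluster shares. The lower genes of the wider list, 2 as reported, numbered 1 with a pseudocount of 10, 1 in female cells, 1 without the low-depth cluster, 1 at a minimum of 20 CPM, 4 with thinned cells and 0 with equal cluster shares. Members with a cluster range of 1 or more, 2 as reported, numbered 0 at resolution 0.25, 0 without likely doublets and 1 with a pseudocount of 10. The median ratio of megakaryocyte-like to HSC-like cells over the members, averaged over libraries, was -0.20, and it was -0.36 with 30 neighbours, -0.37 when members and pathway genes entered the clustering and -0.40 without likely doublets. The causes were not tested. Depth limits Tfeb and Ulk1 most: within clusters Tfeb rests on 2 to 251 molecules per library.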
